A study of Mus musculus with 18 samples.

Results

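The data here describe the cholesterol synthesis genes of mouse liver in pups made hypothyroid for a few days before weaning. A rule named 8 genes of the type controlled by the transcription factor SREBP2: Hmgcs1, Idi1, Fdps, Fdft1, Sqle, Lss, Cyp51 and Dhcr7. Array features were given a gene through their transcript accession, and 7 of the 8 genes matched, with 13 features in all, out of 16535 genes matched on the array. Idi1 matched no feature and was not analysed here.

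The livers came from male C57BL/6 pups at postnatal day (PND) 15, with 1 pup taken from each litter. In the hypothyroid group the dams drank 1% sugar water with 0.05% methimazole (MMI), a drug that blocks hormone synthesis in the thyroid, and 1% perchlorate, which blocks iodide uptake, from PND 12. Control dams drank sugar water only, and pups of both groups received an injection of PBS before sacrifice. The pups of both groups were of 1 strain, and in the hypothyroid group both dams and litters were exposed to the treated water. RNA of 5 control and 5 hypothyroid livers was hybridised, each against a commercial universal mouse reference RNA, on Agilent 2-colour arrays spread over 6 slides. Each array is called by the animal number on its label.

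Liver makes cholesterol from acetyl-CoA through mevalonate, squalene and lanosterol. When membrane cholesterol is low, SCAP carries SREBP2 to the Golgi, where it is cut, and the released part enters the nucleus and switches on the synthesis enzymes. INSIG proteins hold it back when cholesterol is ample. Thyroid hormone is known to raise hepatic cholesterol turnover in adult rodents, and high serum cholesterol is a classical sign of hypothyroidism.

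Control 616 and slide 141 stood apart from the other arrays. Control 616 had compressed ratios: its slope on the mean of the other arrays was 0.608 and its correlation with them across probes was 0.884, against slopes of 0.927 to 1.02 and correlations of 0.974 to 0.988 for the other arrays. On slide 141, which held control 832 and hypothyroid 576, the ratios as labelled correlated with the other arrays at -0.974 and -0.978. The labels and the methods put liver RNA in the Cy5 channel of every array. The ratios of this slide ran opposite to that, and its channels were exchanged here as the rule states. After the exchange the hepatocyte markers lay at a mean log2 ratio of 4.32 on control 832 and 4.35 on hypothyroid 576, inside the range of 4.24 to 4.98 of the other arrays apart from control 616, at 2.82. Exocrine pancreas markers, 10 of 12 of which had a feature, had a mean log2 ratio of 4.00 in control 832, 4.12 in control 522 and 2.58 in control 616, against 0.58 in both remaining controls and 0.49 to 0.63 in the hypothyroid livers, so that 3 of 5 controls stood above every hypothyroid liver.

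The promoter windows are shown because SREBP2 acts on its targets through sterol sites, usually with NF-Y or Sp1 boxes nearby. RefSeq windows on build GRCm38.p6, from 250 bases before to 50 bases after each annotated start, were at hand for 5 of the 8 genes (Hmgcs1, Idi1, Lss, Cyp51 and Dhcr7). Both strands were searched for TCACNCCAC, the core of a sterol regulatory site, for CCAAT, the box bound by the factor NF-Y, and for GGGCGG, the box bound by Sp1, and none of these matches overlapped each other in the 5 genes. Bases before the start are printed for the genes with array values, 5′ to 3′ on the gene's strand, in lower case with matches of the sterol site core and of the NF-Y box, on either strand, in capitals. For Dhcr7, which had 3 annotated starts, the only window with an NF-Y box is shown.
Hmgcs1, chr13:119690101-119690350, + strand: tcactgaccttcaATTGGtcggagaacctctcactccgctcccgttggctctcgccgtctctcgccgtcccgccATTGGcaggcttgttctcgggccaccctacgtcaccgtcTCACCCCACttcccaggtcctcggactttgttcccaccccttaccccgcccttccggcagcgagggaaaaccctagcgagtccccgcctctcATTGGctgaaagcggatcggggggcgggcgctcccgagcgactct
Lss, chr10:76531355-76531604, + strand: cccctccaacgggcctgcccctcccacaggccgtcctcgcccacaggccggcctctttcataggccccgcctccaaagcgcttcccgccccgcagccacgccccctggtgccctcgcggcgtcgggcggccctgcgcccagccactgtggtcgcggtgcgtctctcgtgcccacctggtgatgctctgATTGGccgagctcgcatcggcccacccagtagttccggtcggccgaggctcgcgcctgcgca
Cyp51, chr5:4104698-4104947, - strand: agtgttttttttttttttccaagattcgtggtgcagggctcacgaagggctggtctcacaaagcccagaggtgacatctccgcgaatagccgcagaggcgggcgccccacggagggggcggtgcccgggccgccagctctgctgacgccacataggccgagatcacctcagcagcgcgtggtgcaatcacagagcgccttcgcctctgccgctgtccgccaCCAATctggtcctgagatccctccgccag
Dhcr7, chr7:143829964-143830213, + strand: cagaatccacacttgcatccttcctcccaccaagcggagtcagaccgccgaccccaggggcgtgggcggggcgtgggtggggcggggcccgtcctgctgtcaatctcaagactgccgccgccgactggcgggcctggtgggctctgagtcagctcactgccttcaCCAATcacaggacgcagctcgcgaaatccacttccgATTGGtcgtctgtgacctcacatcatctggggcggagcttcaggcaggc

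Only Hmgcs1, of the 5 genes, held the sterol site core, once, with its first base 137 bases before the start. That core occurred in the windows of 1.44% of the 27025 genes in the reference. An NF-Y box was present in at least 1 window of 5 of the 5 genes, against 41.1% of all genes, and an Sp1 box also in 5 of 5, against 38.2%. Among 12 other synthesis genes with a window, 11 held an NF-Y box, 10 an Sp1 box and 0 the sterol site core. In Dhcr7 the NF-Y boxes began 85 and 49 bases before the start, in Lss 62 and in Cyp51 29 bases before it. These are matches of letters and no measure of binding.

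Each value below is the log2 ratio of liver to reference signal on an array, so a value of 0 means equal signal in liver and reference, and a change is the hypothyroid mean minus the control mean of these ratios. A gene with several features is given by its brightest one. All 7 genes were above background on 10 of 10 arrays and none was saturated. In the limma fit over 32057 probes, 2 probes (0.00624%) had an adjusted p below 0.05, and 0 of the 7 genes were among them. At an unadjusted p below 0.05, 2 of the 7 genes were lower (Cyp51 and Dhcr7), where 4.08% of all probes were, and 1 was higher (Fdft1), where 3.34% were. The groups did not overlap for Dhcr7, lower in every hypothyroid liver (1.00% of all probes), and for Fdft1, higher in every hypothyroid liver (1.07%). The median change of the 7 genes was -0.27 (range -0.56 to 0.53), beside -0.01 for all probes. Without control 616 it was -0.18, beside -0.002 for all probes. A lower mean in the hypothyroid livers was found for 5 of the 7 genes, and for 17234 of the 32057 probes.

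**Figure D1:**
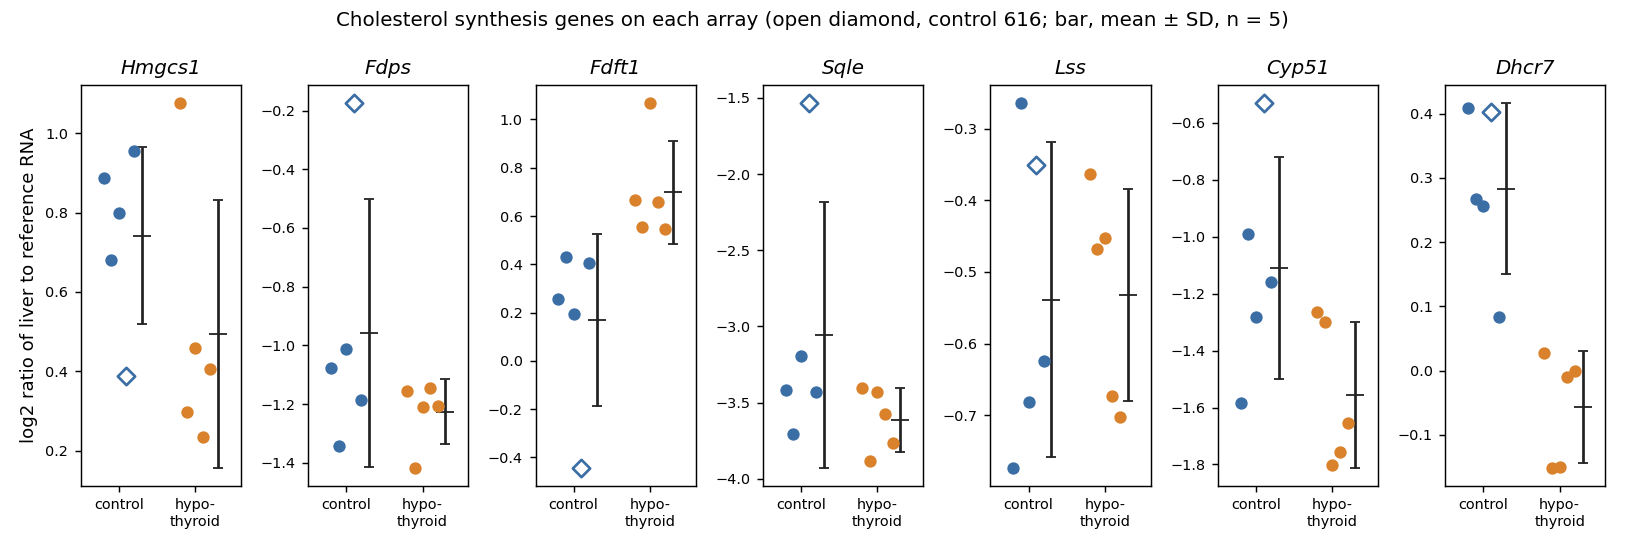
The log2 ratio of liver to reference RNA on each array for the 7 genes, in pathway order, with control livers in blue and hypothyroid livers in orange, each panel on its own scale. Points are arrays, the open diamond is control 616, and the bars give the mean ± SD (n = 5); the groups are apart for Fdft1 and Dhcr7 and overlap for the other genes.

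Hmgcs1, the cytosolic enzyme that makes HMG-CoA at the entry to the pathway, had log2 ratios of 0.89, 0.68, 0.80, 0.39 and 0.96 in controls 881, 832, 522, 616 and 391. In hypothyroid livers 891, 576, 311, 723 and 626 the ratios were 1.08, 0.30, 0.46, 0.23 and 0.41. Hypothyroid 891 was the highest of all 10 arrays and control 616 the lowest control, so the groups overlapped. The change was -0.25 (SE 0.16, limma adjusted p = 0.737, exact two-sided permutation p = 0.206), and the second, dimmer feature gave -0.15. The mean log2 signal of both channels was 6.40 to 7.28 for that feature, against 9.53 to 12.24 for the brightest one. Without control 616 the change was -0.34, with a limma unadjusted p of 0.0456.

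Fdps joins isoprenoid units into farnesyl diphosphate, from which sterols, dolichol and ubiquinone all branch. Its ratios in the controls, in the same order of animals, were -1.08, -1.34, -1.01, -0.17 and -1.18, and in the hypothyroid livers -1.15, -1.42, -1.21, -1.14 and -1.21. Apart from control 616, which was far above the rest, the arrays of both groups lay between -1.42 and -1.01. The change was -0.27 (SE 0.19, limma adjusted p = 0.747, exact permutation p = 0.222) and dropped to -0.07 without control 616.

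Fdft1, squalene synthase, takes the first step committed to sterols, joining farnesyl diphosphate units head to head. Its controls were at 0.26, 0.43, 0.20, -0.44 and 0.40 and its hypothyroid livers at 0.66, 0.55, 1.07, 0.66 and 0.55. Every hypothyroid liver was above every control, with control 616 the lowest and hypothyroid 311 the highest. Fdft1 was thus 1.44-fold higher in the hypothyroid group, a change of 0.53 (SE 0.17, limma adjusted p = 0.510, exact permutation p = 0.00794, the smallest that 5 against 5 arrays allow). Without control 616 the change was 0.38. A second, dimmer feature, well above background on 3 control and 2 hypothyroid arrays, gave 0.04 with overlapping groups.

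Sqle, squalene epoxidase, adds oxygen to squalene and is a rate-limiting step of the later pathway. The control ratios were -3.42, -3.71, -3.19, -1.53 and -3.43 and the hypothyroid ratios -3.40, -3.89, -3.43, -3.58 and -3.76. One array decided this difference: control 616 was the highest, and the remaining controls overlapped the hypothyroid livers. The change of -0.56 (SE 0.35, limma adjusted p = 0.731, exact permutation p = 0.127) moved to -0.18 without it, and the control SD moved from 0.87 to 0.21.

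Lss, which folds squalene epoxide into lanosterol, had control ratios of -0.77, -0.26, -0.68, -0.35 and -0.62 and hypothyroid ratios of -0.36, -0.47, -0.45, -0.67 and -0.70. The ranges lay on top of each other. The change was 0.01 with a 95% interval of -0.24 to 0.25 (limma adjusted p = 0.992), and the second feature gave 0.003, with a wider interval of -0.42 to 0.43.

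Cyp51, the cytochrome P450 that removes a methyl group from lanosterol, had control ratios of -1.59, -0.99, -1.28, -0.53 and -1.16. The hypothyroid ratios were -1.26, -1.30, -1.80, -1.76 and -1.65. Control 616 was again the highest, while controls 881 and 522 lay within the hypothyroid range. The change was -0.45 (SE 0.19, limma adjusted p = 0.651, unadjusted p = 0.0348, exact permutation p = 0.0556), and without control 616 it was -0.30 (unadjusted limma p = 0.060). The other features of Cyp51 gave -0.35 and -0.10, so the size differed between them.

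Dhcr7, the reductase that completes cholesterol and competes with vitamin D synthesis for its substrate, had the smallest spread within groups of the 7 genes. Its controls were at 0.41, 0.27, 0.26, 0.40 and 0.08 and its hypothyroid livers at 0.03, -0.15, -0.15, -0.01 and 0.00. Every hypothyroid liver was below every control, though control 391 and hypothyroid 891 were close. Dhcr7 was 1.27-fold higher in controls, a change of -0.34 (SE 0.08, 95% interval -0.51 to -0.17, limma adjusted p = 0.282, exact permutation p = 0.00794). Its pooled SD within groups of 0.11 stood at the 24.7th percentile of all probes, and leaving out any 1 array moved the change only between -0.39 and -0.31. A second, dimmer feature of the gene did not show this difference: it gave -0.002 (95% interval -0.22 to 0.21, limma adjusted p = 0.996) and was above background on all 10 arrays. Its mean log2 signal of both channels was 7.11 to 7.83 across arrays, against 10.63 to 11.27 for the brightest feature. The mean of both features differed by -0.17, with overlapping groups. Which of the features follows the Dhcr7 transcript was not tested.

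**Figure D2:**
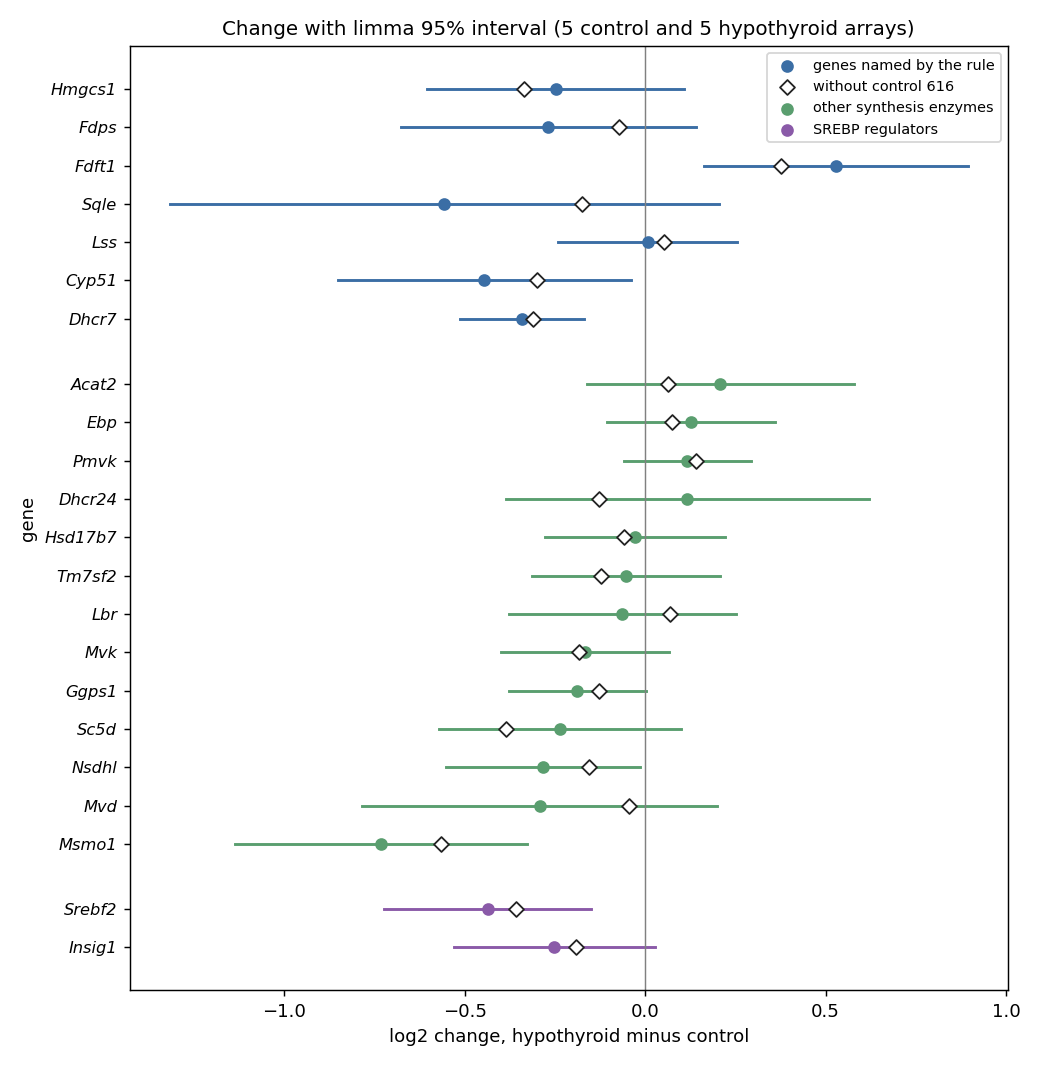
Log2 change (hypothyroid minus control) with the limma 95% interval for the 7 genes in blue, 13 other synthesis enzymes in green and 2 SREBP regulators in purple, with the change without control 616 as open diamonds. Msmo1 (-0.73) lies farthest left and Fdft1 (0.53) farthest right, and the diamonds of Sqle and Fdps move towards 0.

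On 4 slides a control and a hypothyroid liver were hybridised together, and there the difference of the pair leaves out what the slide contributes. For Dhcr7 the pairs differed by -0.38, -0.41, -0.42 and -0.40 on slides 139, 136, 141 and 100. Fdft1 was higher in each pair, by 0.41, 0.87, 0.12 and 0.99. The pairs of Fdps were all lower, by small amounts on 3 slides (-0.08, -0.20 and -0.07) and by -1.03 on slide 100, where the control was 616. Sqle showed the same shape, with 0.01, -0.24 and -0.18 against -2.23 on slide 100. Hmgcs1 (0.19, -0.34, -0.38 and 0.02), Cyp51 (0.32, -0.52, -0.31 and -1.12) and Lss (0.41, 0.23, -0.20 and -0.35) were higher on some slides and lower on others. With slide as a fixed block in limma the change of Dhcr7 was -0.40 and that of Fdft1 0.60, while Cyp51, at -0.41, no longer had an unadjusted p below 0.05 (limma unadjusted p = 0.129). That fit left 1 of the 7 genes higher and 1 lower.

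**Figure D3:**
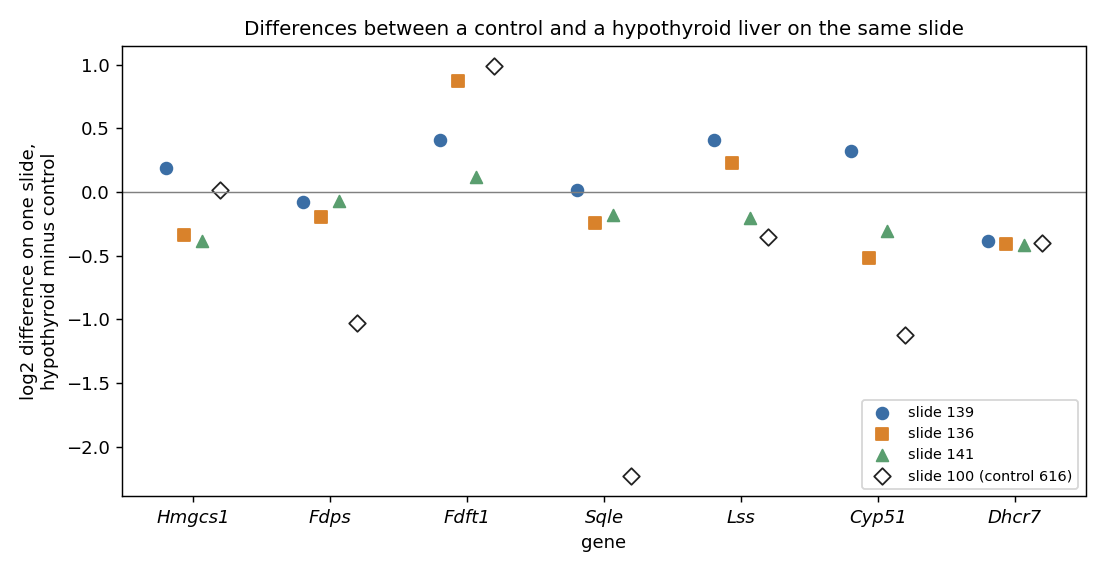
Log2 difference of the hypothyroid minus the control liver on each of the 4 slides that held 1 array of both groups, for the 7 genes in pathway order. The points of Dhcr7 lie together near -0.4, and slide 100, with control 616 as an open diamond, gives the lowest points of Sqle, Fdps and Cyp51.

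Taking the dyes of slide 141 as labelled gave changes of -0.095 for Hmgcs1, -0.48 for Sqle, 0.48 for Fdft1, -0.24 for Fdps, 0.09 for Lss, -0.32 for Cyp51 and -0.17 for Dhcr7. This setting reverses the sign of the ratios of control 832 and hypothyroid 576, so it is no test of the calls or of the signs. No sign of a change turned, and 0 of the 7 genes then had an unadjusted p below 0.05 and 0 had groups apart. Of 32579 probes then tested, 48 were higher and 62 lower at that threshold, against 1071 and 1307 with the exchange. Groups were apart for 26 higher and 18 lower probes, against 342 and 322. The loss of calls in this setting, here and below, was thus not particular to the genes named. Leaving the slide out gave -0.21, -0.65, 0.63, -0.32, 0.06, -0.48 and -0.32 in the same order, and Cyp51 missed the unadjusted threshold (limma unadjusted p = 0.056). Without controls 832, 522 and 616, the arrays with pancreatic transcripts, the change was 0.37 for Fdft1, -0.30 for Dhcr7, -0.43 for Hmgcs1 (limma unadjusted p = 0.052) and -0.18 for Cyp51. Fdft1 and Dhcr7, apart over all arrays, cannot overlap when arrays are left out, so these settings do not test that. Median centring in place of loess, which moved the median of all probes from -0.01 to 0.09, gave 0.76 for Fdft1 and -0.15 for Dhcr7, with the groups of both genes overlapping. Over all probes, 257 were then higher and 60 lower at an unadjusted p below 0.05, against 1071 and 1307 after loess.

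As a set, the 7 genes showed no common variation from liver to liver over these few arrays, though some pairs went together. Across the 21 pairs of genes, the correlation of deviations from the group means over 10 arrays ranged from -0.80 (Fdft1 with Fdps) to 0.98 (Sqle with Fdps), with a median of -0.02. Without control 616 it ranged from -0.63 to 0.85 with a median of 0.12, and Sqle with Fdps, at 0.85, was still the highest pair. Lss with Cyp51 gave 0.75 over 10 arrays and 0.72 without control 616. These arrays share the reference RNA and, in part, slides. The spread within groups was wider than the median of all probes (SD 0.16) for 6 of the 7 genes and lower for Dhcr7. Without control 616 it was wider than the median of all probes (SD 0.14) for 5 of the 7, with Fdps at 0.13 and Dhcr7 at 0.11 below it, and the SD of Sqle was 0.21 in place of 0.63.

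The gene most like the mean of the 7 over 10 arrays, among 14503 genes and outside the pathway lists, was Sap30, at r = 0.96, followed by Tpm2 (0.95), Pgm5 (0.94), Kif23 (0.94) and Evc (0.93). Control 616 had the highest mean of the 7 genes, at 0.41 above their average, and enters these correlations. Over the 9 arrays without it the leading genes were Unc45a (0.94), Sap30 (0.91), Uts2 (0.91), Vmn1r218 (0.89) and Dpp7 (0.89). Group means were not taken out here, so the difference between groups also enters. The 7 genes followed their own mean unequally, with r over 10 arrays from -0.73 for Fdft1 to 0.90 for Sqle.

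Of 13 other enzymes of the pathway, all tested, 0 passed the adjusted threshold, and at an unadjusted p below 0.05 2 were lower and 0 higher. The median change of the 13 was -0.06, and it was -0.12 without control 616 and 0.15 with median centring. Msmo1, the methyl sterol oxidase that works just after Cyp51, had control ratios of -1.44, -1.45, -1.55, -0.78 and -1.99 and hypothyroid ratios of -2.11, -1.95, -2.39, -2.23 and -2.17. Only control 391 reached into the hypothyroid range, and the change was -0.73 (SE 0.18, limma adjusted p = 0.321), or -0.57 without control 616. Nsdhl, the dehydrogenase of the same demethylation, was lower by -0.28 (limma adjusted p = 0.661) with groups apart, and by -0.16 without control 616, and its other features gave -0.37 and -0.24. With the dyes of slide 141 as labelled these changes were -0.53 for Msmo1 and -0.21 for Nsdhl, and neither had an unadjusted p below 0.05. With slide as a fixed block Nsdhl, at -0.32, also missed it (limma unadjusted p = 0.0594).

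Of the 6 tested genes of SREBP control, 1 was lower at an unadjusted p below 0.05. Srebf2, which encodes SREBP2, had control ratios of -1.27, -1.05, -0.95, -0.65 and -0.91 and hypothyroid ratios of -1.26, -1.18, -1.61, -1.30 and -1.67. Control 881 lay with the hypothyroid livers and the other controls above them, for a change of -0.44 (SE 0.13, limma adjusted p = 0.478), while a second feature gave 0.000. Insig1, an SREBP target whose protein retains SCAP in the endoplasmic reticulum, had a change of -0.25 (limma adjusted p = 0.702), and its second feature gave -0.18. Without control 616 the change was -0.36 for Srebf2 and -0.19 for Insig1, and with the dyes of slide 141 as labelled -0.38 and -0.35, where 0 of the 6 genes had an unadjusted p below 0.05. With slide as a fixed block Srebf2, at -0.45, missed that threshold (limma unadjusted p = 0.057), and so did each other gene of this list.

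Among 7 tested uptake and transfer genes 1 was higher at an unadjusted p below 0.05, the high density lipoprotein receptor Scarb1, at 0.27 (limma adjusted p = 0.655), and 0 were lower. Scarb1 was at 0.17 without control 616 (limma unadjusted p = 0.0504) and at 0.17 with the dyes of slide 141 as labelled, and 0 of the 7 genes passed in either case.

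Outside synthesis and uptake, 1 of 11 genes of storage, efflux and conversion was higher at an unadjusted p below 0.05, the cholesterol exporter Abca1, at 0.26 (limma adjusted p = 0.608), and 0 of 4 genes of the mevalonate side branches passed in either direction. Abca1 was at 0.31 without control 616, at 0.19 with the dyes of slide 141 as labelled and at 0.18 with slide as a fixed block (limma unadjusted p = 0.0801), and it did not pass in the last 2 of these settings. Cyp7a1, the rate-limiting enzyme of bile acid synthesis, gave -0.11 on its brightest feature and -0.53 on another, whose groups did not overlap. Of all probes, 1.00% were lower without overlap, and this second feature was chosen after its values were seen. Without control 616 the changes of the 2 features were -0.29 and -0.52, and the control SD of the second was 0.48. Fatty acid synthesis genes, mainly under the related factor SREBP1, went both ways: of 10 tested, 3 were lower and 2 higher at an unadjusted p below 0.05. The lower ones were Thrsp (-1.16, limma adjusted p = 0.347) and Me1 (-0.48, adjusted p = 0.274), both long known as thyroid hormone responsive, and Fasn (-0.33, adjusted p = 0.651). Acly, which supplies cytosolic acetyl-CoA to both pathways, was higher by 0.33 with groups apart (limma adjusted p = 0.418), and the desaturase gene Scd1 by 0.55 (adjusted p = 0.637). Without control 616, 2 were lower and 2 higher, with Fasn at -0.25 (limma unadjusted p = 0.070). With the dyes of slide 141 as labelled 0 of the 10 passed, and the changes were -0.47 for Thrsp, -0.37 for Me1, -0.15 for Fasn, 0.15 for Acly and 0.38 for Scd1. With slide as a fixed block Fasn (limma unadjusted p = 0.0599) and Scd1 (unadjusted p = 0.0707) did not pass.

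**Figure D4:**
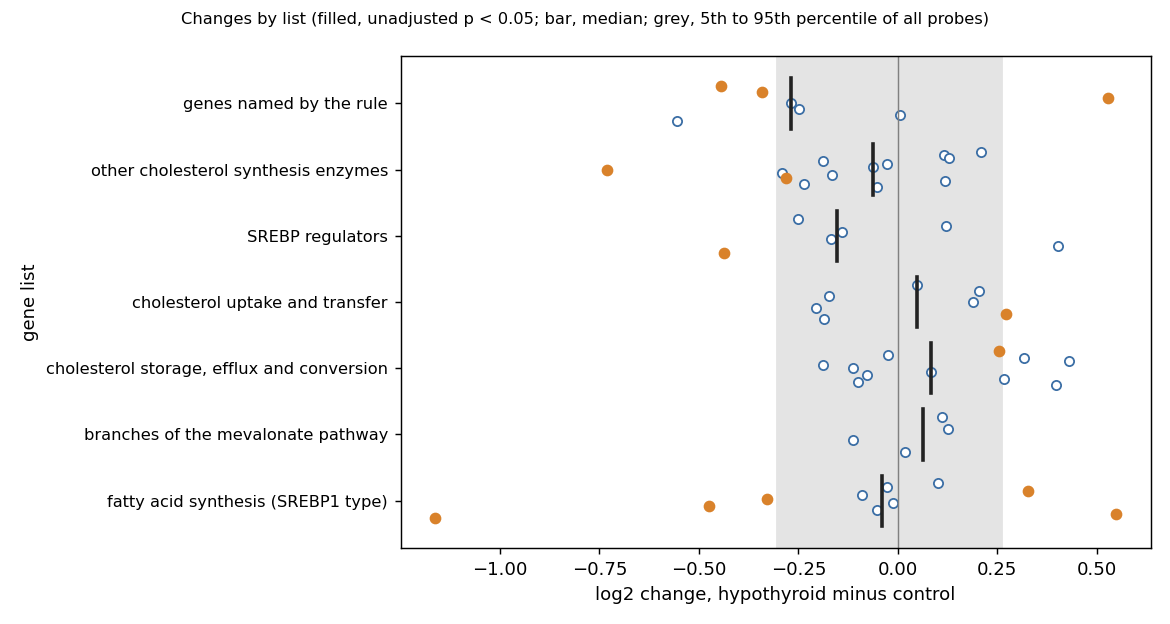
Log2 change (hypothyroid minus control) of each tested gene in 7 lists, filled where the unadjusted limma p is below 0.05, with the list median as a black bar. The grey band runs from the 5th to the 95th percentile of all probes, -0.30 to 0.26; Sqle, Cyp51 and Dhcr7 lie below it and Fdft1 above it.

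In whole liver RNA, fewer cells of a type and less RNA per cell cannot be told apart. Of the exocrine pancreas markers, 8 of 9 tested were lower in the hypothyroid group at an unadjusted p below 0.05, as were 2 of 8 skeletal muscle markers, Acta1 by -0.63 and Mylpf by -0.26, where 4.08% of all probes were lower. Of the hepatocyte markers 2 of 6 were higher and of the stellate or fibroblast markers 1 of 6, Reln, by 0.36, where 3.34% of all probes were higher. Reln went against its list, since the median change of the 6 stellate or fibroblast markers was -0.24. No erythroid, macrophage, endothelial or biliary marker passed in either direction. The mean log2 ratio of the muscle markers was -0.17 in control 522 and -0.20 in control 616. It was -0.56 to -0.49 in the other controls and -0.60 to -0.55 in the hypothyroid livers. For the hepatocyte markers it was 2.82 in control 616, 4.24 to 4.96 in the other controls and 4.35 to 4.98 in the hypothyroid livers. The part of single controls in these marker counts was not tested. The part of these markers in the changes of the synthesis genes was not tested.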

How the data were processed

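Liver RNA (labelled Cy5) and reference RNA (Cy3) were read on Agilent 4-array slides. The deposited files hold scanner intensity per spot from Agilent Feature Extraction, not normalized by the authors. Median signals were corrected with limma 3.58.1 in R 4.3.3 (normexp, offset 50) and normalized by loess within arrays (span 0.2), after the methods. Control and outlier spots had weight 0 in loess and were left out afterwards, the channels of slide 141 were exchanged, and spots of a probe were averaged. A probe was tested if its liver signal exceeded the trimmed mean (5% trim) plus 3 trimmed SD of the negative control spots on at least 4 of 5 arrays of a group, which left 32057 of 41174 probes. The groups were compared with limma (group only) with Benjamini-Hochberg adjustment, and per gene with an exact two-sided permutation test over the arrays. With 5 arrays a group, precision is set by how few there are. The script was tested on simulated data.

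Files name no genes: 23374 probes were named by transcript accession through RefSeq (GRCm38.p6). Promoter sequences are from the same source. The genes of the rule are all named, and of the other lists the genes with an unadjusted p below 0.05 or groups apart, with Srebf2 and Insig1. Cyp7a1 was added for a feature other than its brightest. Some genes of these lists are not reported here. The genes and lists were chosen with earlier results of these data known. The microRNA card data were not used here. Slide as a block, array weights, other background and normalization settings, the Fs test named in the methods and leaving out arrays were tried as alternatives.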

Additional observations from a re-analysis of the deposited data

Results flagged for a closer look

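For each of the 7 genes in each group of 5 livers, the gap of the highest or lowest array to its nearest neighbour was set against the range of the group. Of 14 such groups, 6 (42.9%) had a gap above the critical value of 0.71, which chance gives in about 1 in 20 for a single group. The 14 groups share the same arrays, and no share over all probes is set beside the 6. The count can therefore not be read as a trait of these genes. Control 616 was the array apart in 3 of them: highest for Sqle (gap of 0.763 of the range), highest for Fdps (0.715) and lowest for Fdft1 (0.729). In the hypothyroid group the arrays apart were 891, highest for Hmgcs1 (0.733), 311, highest for Fdft1 (0.772), and 576, lowest for Fdps (0.762). The part of the compressed ratios of control 616 in the first 3 was not tested.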

How the results depend on the processing

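None of the 7 genes passed the adjusted threshold under any of the 25 alternatives run. Their median change stayed negative in each (-0.36 to -0.07), and no direction turned for Hmgcs1, Sqle, Fdft1, Fdps, Cyp51 or Dhcr7. Median centring left 0 genes with an unadjusted p below 0.05, 0 with groups apart, 317 probes with an unadjusted p below 0.05 and 1 with an adjusted p below 0.05. The dyes of slide 141 as labelled, which reverse the ratios of control 832 and hypothyroid 576, left 0 genes on both counts, 110 probes and 0 probes. The mean over the features of a gene left 1 gene with groups apart, since Dhcr7 then overlapped. Of all probes, 0 passed with slide as a fixed block or without slide 141, 14 with slide as a random block, 49 with array weights, and 1 each with Agilent's processed signals, without controls 832, 522 and 616, and without control 616 and slide 141, a choice made after seeing the data. With slide as a fixed block, 798 probes were higher and 1436 lower at an unadjusted p below 0.05. Leaving out 1 array gave 1 probe (without control 832) to 30 probes (without control 616) past the adjusted threshold. At an unadjusted p below 0.05 it gave 2 to 4 of the 7 genes, beside 1689 to 3023 of all probes. The change of Lss ran from -0.052 to 0.076 over these fits. No paired analysis was possible because of the replicate numbers, which are animal numbers that the groups do not share, but 4 slides held 1 array of each group, and the fit with slide as a fixed block uses those pairs. The cause of these shifts was not tested, and signal over background did not limit the 7 genes on their brightest features.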
